A study of Mus musculus with 8 samples.

Results

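A set of 9 genes named for or commonly grouped with the interferon response was examined in mouse morulae: the effector genes Isg20, Isg15 and Bst2, the membrane protein genes Ifitm1, Ifitm2 and Ifitm3, and the interferon regulatory factor genes Irf1, Irf7 and Irf9. They were taken by symbol from a table of 18257 genes, and all 9 were present. The set was selected on its measured difference between A485 and control in these same libraries, where Isg20 was among the largest, so the members' values are given as a description, with no test. Each of 4 A485 libraries came from wild-type embryos cultured in KSOM medium with 2 µM A485, a small molecule that blocks the histone acetyltransferases p300 and CBP. Each of 4 control libraries came from wild-type embryos cultured with 0.1% DMSO, a solvent. The labels used here give no DMSO level for the A485 libraries. Culture began at the 4-cell stage, the samples are labelled as morulae, and each library pooled 3 embryos freed of their zona. The labels used here name no strain, and they do not tie a pool to a litter or day, so p-values measure the spread between these libraries.

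Type I interferons act through the receptor chains IFNAR1 and IFNAR2 and the kinases JAK1 and TYK2, which phosphorylate transcription factors in the cytoplasm. IRF9 is the part of the resulting complex that recognises the interferon-stimulated response element (ISRE), while signalling by interferon gamma acts on the gamma-activated site (GAS). Pluripotent cells are known to respond weakly to interferon and yet to express some interferon-stimulated genes, among them Ifitm genes, without it.

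Total estimated counts per library were 23967845 to 25175423 for A485 and 23641781 to 25677701 for control. Of 10 preimplantation markers, all but Cdx2 had at least 9.91 CPM (counts scaled to library size) in all 8 libraries. Cdx2, a trophectoderm factor, had 0.366 to 3.20 CPM for A485 and 41.4 to 63.7 CPM for control. The summed level of the 10 markers, of which 9 fell, was 2713 to 6875 CPM for A485 and 11494 to 13350 CPM for control. The summed level of the 11 haematopoietic markers in the table was higher in all A485 libraries, at 184 to 501 CPM, against 36.2 to 51.2 CPM for control (exact two-sided permutation test, p = 0.0286, the smallest that 4 against 4 allows, 0.0572 adjusted over 6 library measures). That sum was made up mostly of Hba-a1, Cd68 and Csf1r. Hba-a1 had 100.6 to 328.5 CPM for A485 and 7.5 to 17.44 CPM for control. Cd68 had 61.36 to 140.9 CPM for A485 and 22.75 to 41.17 CPM for control. Csf1r had 4.597 to 30.79 CPM for A485 and 0.04404 to 0.2083 CPM for control. Of the 5 tested haematopoietic markers 3 rose and 1 fell. Laptm5 overlapped between the groups, at 0 to 2.587 CPM for A485 and 0.3963 to 0.6958 CPM for control. Ptprc and Tyrobp stayed at or below 0.183 CPM in every library. The summed level of cumulus and granulosa markers was 25.5 to 49.9 CPM for A485 and 24.1 to 41.0 CPM for control, and that of fibroblast markers 1.59 to 3.30 CPM for A485 and 0.813 to 3.02 CPM for control. Most of the cumulus and granulosa sum was Amhr2, and 2 of the 3 tested markers of that list rose. Inha had 0.813 to 2.26 CPM for A485 and no count in control, and Kitl had 0.444 to 1.31 CPM for A485 and 0 to 0.333 CPM for control. The part of any marker list in the values below was not tested. In pooled embryos, fewer cells of a type and less RNA per cell cannot be told apart.

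The promoters show which members carry the recognition letters of this pathway close to their start. The 140 bases upstream of the most upstream listed start are printed 5′ to 3′ for the members described first and for both members that were lower in A485 (RefSeq, GRCm38.p6). Capitals mark ISRE cores (GAAA, any 2 bases, GAAA) and GAS motifs (TTCNNNGAA). For Isg20 and Ifitm2 the listed start is not the outer end of the annotated span. The span of Ifitm2 runs on to 140959686, and the sequence at that outer end was not searched.
Isg20 (chr7:78913284-78913423, plus strand): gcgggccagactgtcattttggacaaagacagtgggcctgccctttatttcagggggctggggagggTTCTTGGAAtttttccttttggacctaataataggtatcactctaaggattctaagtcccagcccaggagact
Irf1 (chr11:53769874-53770013, plus strand): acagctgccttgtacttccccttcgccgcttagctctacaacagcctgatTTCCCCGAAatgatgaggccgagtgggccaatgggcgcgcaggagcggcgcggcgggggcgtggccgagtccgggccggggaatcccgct
Isg15 (chr4:156200819-156200958, minus strand): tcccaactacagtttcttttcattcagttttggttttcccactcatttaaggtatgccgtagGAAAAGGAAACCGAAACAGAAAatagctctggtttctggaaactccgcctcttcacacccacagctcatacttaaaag
Bst2 (chr8:71537473-71537612, minus strand): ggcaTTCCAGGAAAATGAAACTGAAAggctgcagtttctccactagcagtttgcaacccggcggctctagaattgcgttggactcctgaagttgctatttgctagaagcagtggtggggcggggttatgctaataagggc
Ifitm2 (chr7:140955962-140956101, minus strand): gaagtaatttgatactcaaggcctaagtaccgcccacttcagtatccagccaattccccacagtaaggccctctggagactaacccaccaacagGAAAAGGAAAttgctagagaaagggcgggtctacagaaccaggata
Irf9 (chr14:55603845-55603984, plus strand): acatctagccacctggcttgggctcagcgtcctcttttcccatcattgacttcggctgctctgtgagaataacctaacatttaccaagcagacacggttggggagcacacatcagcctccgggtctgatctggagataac
In Isg15, a textbook interferon-stimulated gene, 3 ISRE cores overlap in 1 run that starts 78 bases before the transcript start. Bst2 holds a GAS motif from base -136 whose end overlaps a run of 2 ISRE cores. The single ISRE core of Ifitm2 begins at base -46, and Isg20 and Irf1 hold a GAS motif each, at -73 and -90. Irf9 shows neither motif in the printed stretch. Over the whole window of 250 bases before to 50 after a start, on both strands, an ISRE core was found for 4 of 9 members (Isg15, Ifitm2, Ifitm3 and Bst2) and for 3.99% of 27025 genes. A GAS motif was found for 4 members (Isg20, Ifitm3, Bst2 and Irf1) and for 9.55% of genes. In Ifitm3 both kinds lie after the start, where its 2 ISRE cores begin at bases 3 and 20, and its GAS motif overlaps the second of them. Of the 2 members that were lower in A485, Ifitm2 holds an ISRE core and Irf9 shows none in these windows. A match is a description of letters, and a missing one says only that they are not in the window.

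Isg20 encodes a 3′ to 5′ exonuclease that degrades RNA, and it was far higher in A485 embryos. It measured 18.7, 31.7, 46.5 and 41.2 TPM (transcript abundance scaled for length and depth, as deposited) in A485 replicates 1 to 4, against 0.30, 0.16, 0.20 and 0.08 TPM in control replicates 1 to 4. The lowest A485 library thus stood far above the highest control library, and the control group held 17 counts in all. The log2 fold change fitted by edgeR, A485 over control, was 7.06 ± 0.37 (SE, n = 4 per group), and the count ratio was 139 with an exact 95% counting interval of 86.6 to 239. Isg20 lies on chromosome 7 at 78913396 to 78920396 (GRCm38.p6, plus strand), and no other annotated gene overlaps it.

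Isg15 encodes a ubiquitin-like protein that is attached to other proteins in interferon-treated cells. It measured 2.06, 2.27, 6.03 and 1.18 TPM in A485 replicates 1 to 4, while control replicate 2 had 0.07 TPM and the other 3 control libraries were at 0. Every A485 library was above every control library, but the level stayed low, with 148 counts over the A485 group and 1 over the control group. Scaled for library size the ratio was 124, with an exact 95% counting interval of 21.9 to 4920, which covers counting error only. The gene lies on chromosome 4 at 156199424 to 156200818, on the minus strand.

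Bst2 encodes tetherin, a membrane protein that holds budding enveloped viruses at the cell surface. It was already well expressed in control embryos. Its level was 91.0, 63.4, 108 and 112 TPM in A485 replicates 1 to 4, against 49.6, 39.2, 51.7 and 33.3 TPM in control replicates 1 to 4. The groups did not overlap in TPM, but they did in CPM scaled by TMM factors, where the A485 range was 31.2 to 61.0 and the control range 22.1 to 33.1. The log2 fold change was 0.80 ± 0.22 (SE, n = 4 per group), the smallest in absolute size among the 8 members that could be fitted. Bst2 lies on chromosome 8 at 71534255 to 71537472, on the minus strand.

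**Figure D1:**
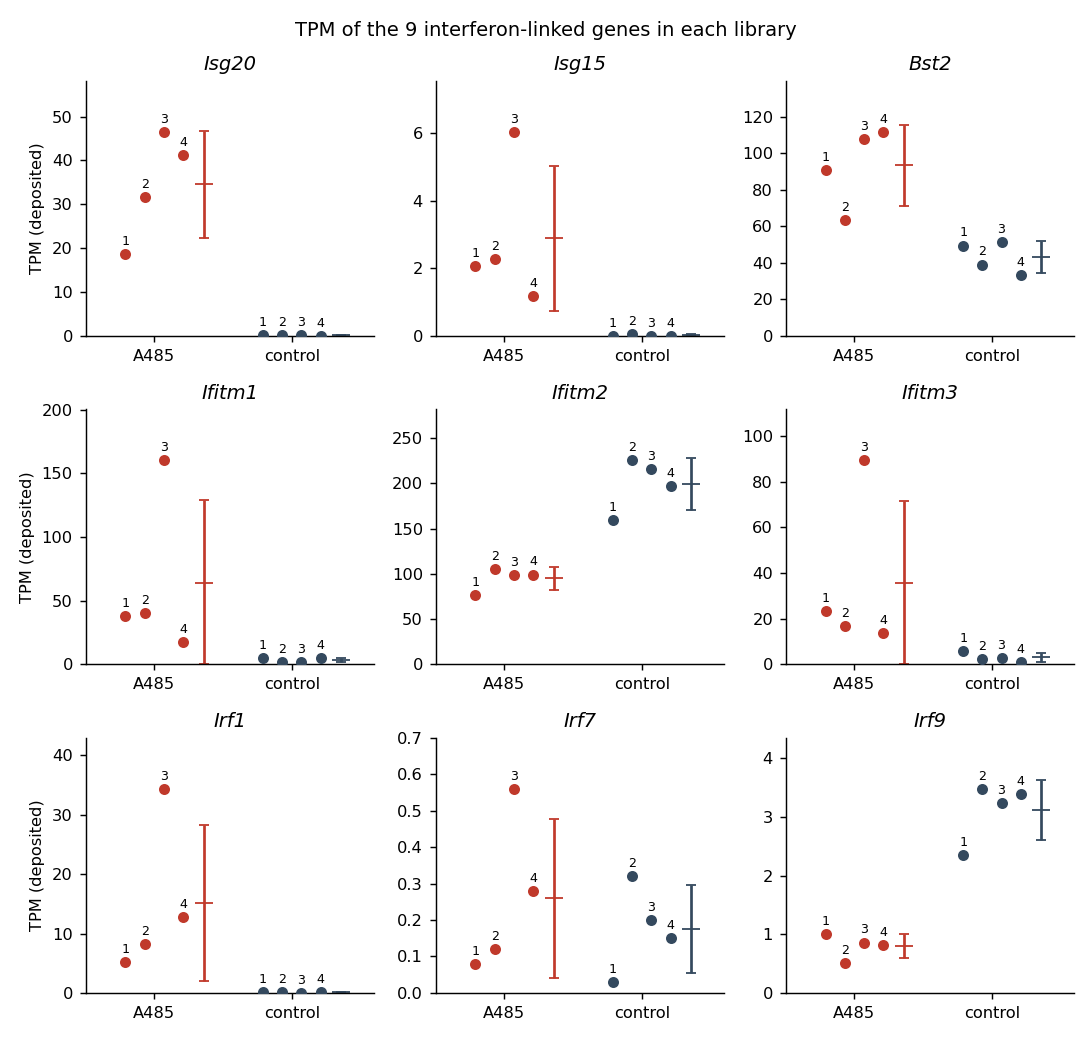
TPM of the 9 genes in each library, one panel per gene with its own linear axis from 0; points are libraries numbered by replicate, A485 left and control right, and the bars show the mean ± SD (cut off at 0). Isg20, Isg15, Irf1, Ifitm1 and Ifitm3 were near the axis in control, at no more than 5.81 TPM, while Ifitm2 and Irf9 were lower in A485 and Irf7 overlapped.

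The 3 Ifitm genes encode small transmembrane proteins that block the entry of enveloped viruses, and Ifitm1 and Ifitm3 are also known as early markers of mouse germ cells. Within the family, Ifitm1 and Ifitm3 were higher in A485 and Ifitm2 was lower. Ifitm1 measured 38.2, 40.2, 160 and 17.9 TPM in A485 replicates 1 to 4, against 5.23, 1.91, 1.84 and 5 TPM in control replicates 1 to 4. Ifitm3 measured 23.5, 16.9, 89.2 and 13.7 TPM in A485 replicates 1 to 4, against 5.81, 2.43, 2.74 and 1.23 TPM in control replicates 1 to 4. Both were higher in every A485 library, and both were highest in A485 replicate 3 and lowest in A485 replicate 4. The log2 fold change was 3.77 ± 0.65 for Ifitm1 and 3.16 ± 0.66 for Ifitm3 (SE, n = 4 per group).

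Ifitm2 was the most abundant of the 3 in control embryos. Its level was 76.3, 106, 98.9 and 99.4 TPM in A485 replicates 1 to 4, against 160, 225, 216 and 197 TPM in control replicates 1 to 4. All A485 libraries were below all control libraries. On the CPM scale the coefficient of variation among A485 libraries was 8.44%, the smallest of the 9 members. The log2 fold change was -1.39 ± 0.15 (SE, n = 4 per group). In control embryos Ifitm2 made up 93.5% to 98.1% of the summed TPM of the 3 genes. In A485 embryos its share was 55.3%, 65.0%, 28.4% and 75.9% in replicates 1 to 4. The summed level itself overlapped between the groups, at 131 to 348 TPM for A485 and 171 to 230 TPM for control. Without A485 replicate 3, the only A485 library above the control range, the sum was 131 to 163 TPM, below every control library. These genes are close relatives, and estimated counts can be split between such copies. All 8 values of each of the 9 members were whole numbers, which was so for 75.3% of the genes in the table. Ifitm2 shares its position and strand with part of the annotated gene Gm45717, and Irf1 overlaps Gm17334 on the opposite strand. Neither of those has a row in the table. Reads from the stretch shared with Gm45717 cannot be told apart by strand, and those from Irf1 and Gm17334 cannot be told apart without it.

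**Figure D2:**
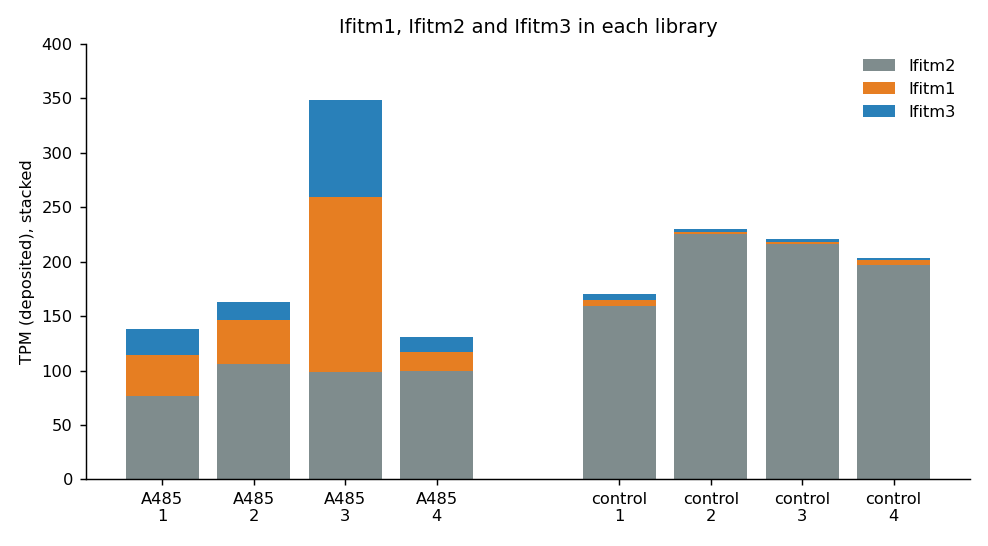
Stacked bars of the deposited TPM of Ifitm2 (grey), Ifitm1 (orange) and Ifitm3 (blue) in each A485 library (left) and each control library (right), on a linear axis from 0. Ifitm2 takes nearly the whole bar in control, while Ifitm1 and Ifitm3 add visible shares in all A485 libraries and exceed Ifitm2 together in A485 replicate 3.

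The 3 interferon regulatory factor genes also differed among themselves. Irf1, a transcription factor of the interferon gamma and inflammatory response, measured 5.22, 8.19, 34.4 and 12.8 TPM in A485 replicates 1 to 4, against 0.12, 0.09, 0.04 and 0.11 TPM in control replicates 1 to 4. The groups were far apart, with 2706 counts over the A485 group and 17 over the control group, although A485 libraries differed 5.09-fold among themselves in CPM. The log2 fold change was 6.96 ± 0.66 (SE, n = 4 per group). Irf9, which encodes the ISRE-recognising subunit of the type I interferon complex, measured 1.00, 0.51, 0.86 and 0.81 TPM in A485 replicates 1 to 4, against 2.36, 3.48, 3.24 and 3.39 TPM in control replicates 1 to 4. It was lower in all A485 libraries, with a log2 fold change of -2.27 ± 0.30 (SE, n = 4 per group). Irf7, the main regulator of interferon alpha genes, measured 0.08, 0.12, 0.56 and 0.28 TPM in A485 replicates 1 to 4, against 0.03, 0.32, 0.20 and 0.15 TPM in control replicates 1 to 4. Its groups overlapped, with 38 counts over the A485 group and 27 over the control group, and it was the 1 member below the filter on low counts. Irf1 lies on chromosome 11 at 53770014 to 53778374 and Irf9 on chromosome 14 at 55603985 to 55610030, both on the plus strand. For Irf7 the count ratio after scaling was 1.18, with an exact 95% counting interval of 0.700 to 2.00. That ratio was 0.765 without A485 replicate 3 and 0.915 without control replicate 1, so it has no settled direction.

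Of the 8 members past the filter, 6 were past an edgeR adjusted p of 0.05 as higher in A485, against 29.7% of all 12936 tested genes. The other 2 were past it as lower, against 25.0% of tested genes, and 54.7% of tested genes were past it in either direction. Of all tested genes 3839 were higher and 3238 lower, but 4930 higher and 2300 lower when libraries were scaled by total count alone. The groups did not overlap in CPM for 7 of 9 members, against 51.5% of tested genes. Since the members were chosen with this contrast known, nothing is read from these counts. Isg20, Isg15 and Irf1 passed the filter through A485 libraries alone, with no control library at the 0.403 CPM that it asks for.

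On the TPM scale, the order of mean levels in A485 embryos was Ifitm2 (95.1), Bst2 (93.5), Ifitm1 (64.1), Ifitm3 (35.8), Isg20 (34.5), Irf1 (15.1), Isg15 (2.88), Irf9 (0.795) and Irf7 (0.260). Neighbours in that order overlapped in range, except that every Isg15 value was above every Irf9 value. In control embryos the order was Ifitm2 (200), Bst2 (43.4), Ifitm1 (3.50), Irf9 (3.12), Ifitm3 (3.05), Isg20 (0.185), Irf7 (0.175), Irf1 (0.0900) and Isg15 (0.0175). There Ifitm2, Bst2 and the group of Ifitm1, Irf9 and Ifitm3 were set apart from each other by gaps, and from the remaining 4 genes, whose neighbours in the order overlapped. Control morulae thus held mainly Ifitm2 and Bst2 RNA among these 9 genes.

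A485 replicate 3 was the highest A485 library for 6 of the 9 members. Its CPM was 3.43 times the mean of the other 3 A485 libraries for Irf1, 4.02 times for Ifitm1, 4.16 times for Ifitm3, 3.02 times for Irf7 and 2.81 times for Isg15. For Isg20 the same ratio was 1.396, and for Bst2, Irf9 and Ifitm2 it was 1.03, 0.962 and 0.920. Replicate 3 was also the highest A485 library for 47.7% of the 3839 genes called higher, where the median ratio was 1.24 and the 95th percentile 2.82. Without A485 replicate 3 the log2 fold changes were 6.28 for Irf1, 2.96 for Ifitm1, 2.31 for Ifitm3 and 5.83 for Isg15. Each was smaller than with all 8 libraries, where that of Isg15 was 6.38 ± 0.93 (SE, n = 4 per group). The members were selected on this contrast, so their unchanged direction is a description only. The value of Ifitm3 was 3.67 without control replicate 1. Without control replicate 2 no control count of Isg15 remained. With the control group then set at 3 counts in all, the pooled ratio was 31.1. That value covers no error on the A485 side and is not a lower bound.

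**Figure D3:**
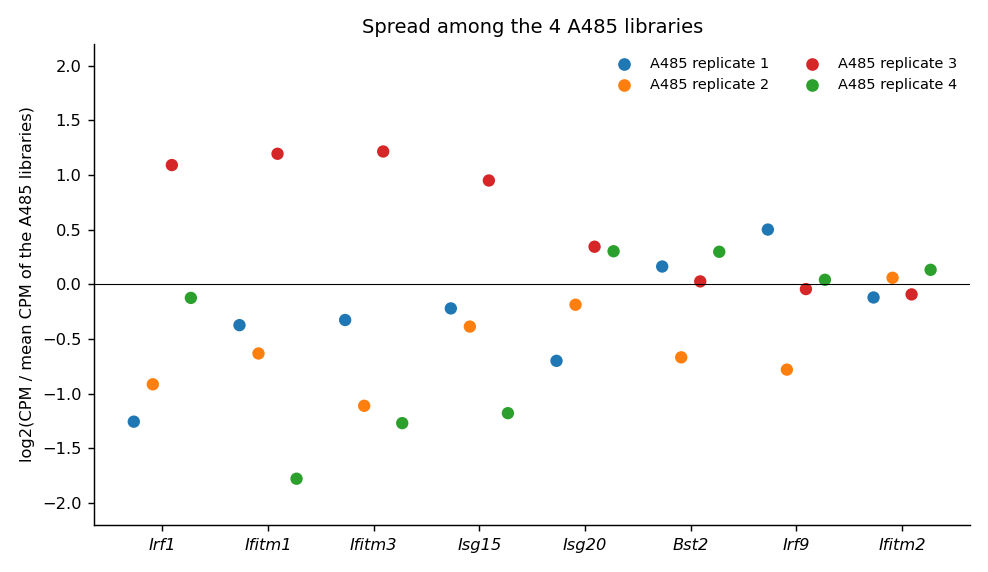
Level of 8 members in each A485 library relative to the mean of the 4 A485 libraries, as log2 of the CPM ratio; colours mark replicates 1 to 4. Replicate 3 stands at the top for Irf1, Ifitm1, Ifitm3 and Isg15, whereas Ifitm2 varied little.

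Ifitm1, Ifitm2, Ifitm3 and Irf7 lie in 1 stretch of chromosome 7 (GRCm38.p6). Ifitm2 (140954837 to 140959686, minus strand) ends 7.74 kb before Ifitm1 (140967429 to 140969827, plus strand) begins, Ifitm3 (141009590 to 141010744, minus strand) follows after 39.8 kb, and Irf7 (141263183 to 141266499, minus strand) after a further 252 kb. Ifitm2, lower in A485, and Ifitm1, higher in A485, are thus 7.74 kb apart. Of 44 other genes of the table within 250 kb of these 4, 35 were tested, and 14 rose and 4 fell (edgeR adjusted p under 0.05). That is 40.0% and 11.4%, against 29.7% and 25.0% of all tested genes. Pkp3, encoding the desmosomal protein plakophilin 3, rose to 62.1 ± 27.9 CPM in A485, against 3.29 ± 0.744 CPM in control (SD, n = 4 per group; edgeR adjusted p = 2.17e-05). Eps8l2, encoding an actin-regulating protein, rose to 125 ± 43.5 CPM in A485, against 8.76 ± 1.36 CPM in control (SD, n = 4 per group; edgeR adjusted p = 1.01e-05). Polr2l, encoding a subunit shared by RNA polymerases, fell to 430 ± 147 CPM in A485, against 912 ± 97.3 CPM in control (SD, n = 4 per group; edgeR adjusted p = 0.00222). These 3 neighbours were chosen after their values were seen.

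**Figure D4:**
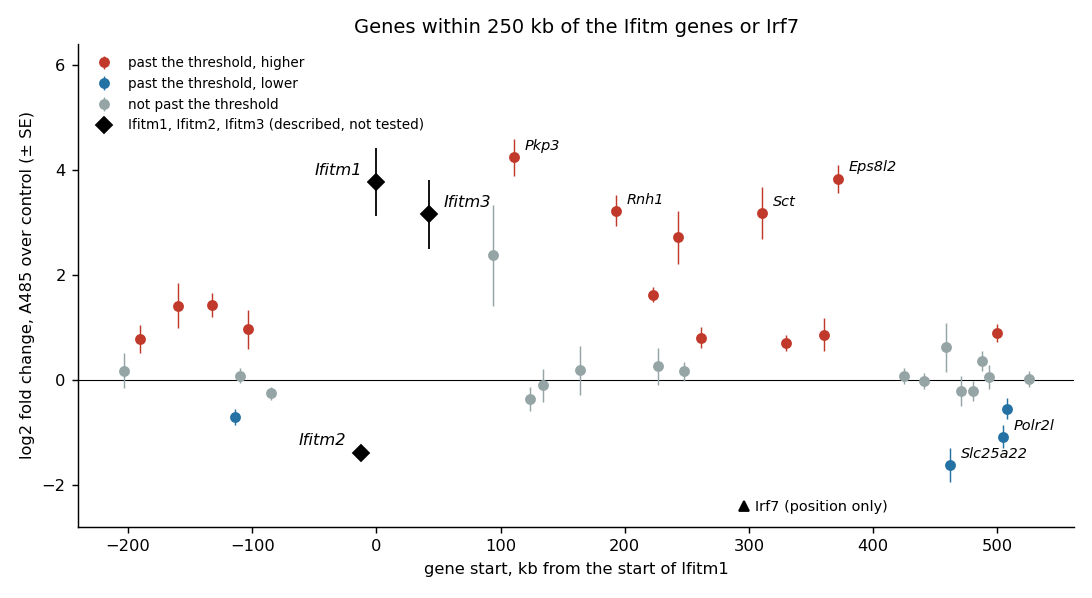
Log2 fold change (A485 over control, ± SE) of the tested genes within 250 kb of the Ifitm genes or Irf7, by the distance of their start from that of Ifitm1; diamonds are Ifitm1, Ifitm2 and Ifitm3, and a triangle marks where Irf7 lies. Ifitm2 sits below 0 beside Ifitm1 and Ifitm3, and genes that rose, fell or did not pass occur on either side of them.

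The other genes of the pathway were read from 11 lists that hold none of the 9 members. Of 21 interferon genes listed, 5 were measured: Ifnk, Ifnz, Ifng, Ifnl2 and Ifnl3 had at most 0.316 CPM in any library. The others, among them the interferon alpha and beta genes, were not analysed here. Over all lists 130 genes were tested, and 52 rose and 23 fell, which is 40.0% and 17.7%, against 29.7% and 25.0% of all tested genes. The lists were chosen with earlier results of these data known, so these shares are a description. Without control replicate 3, 39 pathway genes and 3509 of all tested genes rose. Their median log2 fold change was 0.33, against 0.09 for all tested genes. Of the 52 that rose, 7 had no control library at the filter level, and 30 were highest in A485 replicate 3.

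Among 11 tested receptor and JAK-STAT genes, 5 rose and 3 fell (45.45% and 27.3%, against 29.7% and 25.0% of all tested genes). Ifnar2, a type I receptor chain, rose to 4.33 ± 0.860 CPM in A485, against 0.259 ± 0.136 CPM in control (SD, n = 4 per group; edgeR adjusted p = 6.84e-05). Ifngr1, a chain of the interferon gamma receptor, rose to 36.6 ± 12.6 CPM in A485, against 4.98 ± 0.614 CPM in control (SD, n = 4 per group; edgeR adjusted p = 2.75e-05). Their partner chains behaved differently, since Ifngr2 fell (log2 fold change -1.51 ± 0.32, SE) and Ifnar1 did not pass (0.35 ± 0.14, SE; edgeR adjusted p = 0.0542), though it did without control replicate 2 (edgeR adjusted p = 0.0321) or A485 replicate 3 (edgeR adjusted p = 0.0403). Jak2 rose (2.44 ± 0.33, SE), the kinase gene Tyk2 fell (-1.35 ± 0.33, SE) and Stat2, at -0.34 ± 0.28 (SE), did not pass (edgeR adjusted p = 0.327). Jak1, at 0.54 ± 0.21 (SE; edgeR adjusted p = 0.0475), lost its call when any 1 library other than A485 replicate 1 was left out (edgeR adjusted p from 0.0718 to 0.135).

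Of 7 other IRF and IRF2-binding protein genes tested, Irf2bp2 and Irf5 rose and Irf2bp1 fell. Those shares are 28.6% and 14.3%, against 29.7% and 25.0% of all tested genes. Irf5 lost its call without any single control library (edgeR adjusted p from 0.058 to 0.112) and without A485 replicate 3, where its log2 fold change was 0.47 instead of 1.23 (edgeR adjusted p = 0.181). Irf3, the factor activated by nucleic acid sensing, measured 14.3 to 19.1 CPM in A485 and 14.9 to 20.1 CPM in control (edgeR adjusted p = 0.609). Irf2, a repressor of Irf1 targets, was below the filter with 194 counts over the A485 group and 2 over the control group, a ratio of 81.1 with an exact 95% counting interval of 22.2 to 674.

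Of 23 tested nucleic acid sensor and adaptor genes, 8 rose and 3 fell (34.8% and 13.0%, against 29.7% and 25.0% of all tested genes). Without A485 replicate 3, 5 fell. Tmem173, encoding the adaptor STING, rose, with 11.2, 8.38, 10.04 and 3.33 CPM in A485 replicates 1 to 4, against 0.0881, 0, 0.0417 and 0 CPM in control replicates 1 to 4 (edgeR adjusted p = 2.36e-05). The adaptor gene Myd88 rose to 35.4 ± 13.3 CPM in A485, against 5.16 ± 1.81 CPM in control (SD, n = 4 per group; edgeR adjusted p = 0.000103), and Traf3 rose by 1.05 ± 0.13 on the log2 scale (SE). Rnaseh2b, encoding a subunit of the ribonuclease that clears RNA from DNA, fell to 21.5 ± 5.56 CPM in A485, against 72.4 ± 5.32 CPM in control (SD, n = 4 per group; edgeR adjusted p = 6.62e-05).

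Interferon-induced antiviral effectors went both ways, with 10 of 25 tested genes higher and 5 lower, and 5 higher without control replicate 3. Of the 52 such genes in the table, 23 stayed under 1 CPM in every library. Shisa5 and Tor3a rose by 3.14 ± 0.36 and 2.94 ± 0.51, while Slfn2 and Phf11d fell by 2.91 ± 0.51 and 1.39 ± 0.24 on the log2 scale (SE). Rsad2, encoding the antiviral enzyme viperin and chosen after its values were seen, had no count in any control library. It measured 0.534, 3.66, 16.0 and 2.62 CPM in A485 replicates 1 to 4. With counts pooled over each group and the control group set at a floor of 3 counts in all, the ratio was 182. Without A485 replicate 3 that ratio was 70.4. Neither value covers the spread between A485 libraries, so neither is a lower bound. The SE of the fitted log2 fold change was 1.96.

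The enzymes that attach and remove ISG15 were mixed. Uba7, its activating enzyme, was at or below 0.612 CPM in every library, the mouse ligase gene Herc6 had no count in A485 and at most 0.0928 CPM in control, and the protease gene Usp18 had 57 counts over the A485 group and 0 over the control group. Ube2l6, its conjugating enzyme, fell to 2.24 ± 1.47 CPM in A485, against 9.09 ± 2.42 CPM in control (SD, n = 4 per group; edgeR adjusted p = 0.0031). Of 5 tested genes in this list 2 rose (Arih1 and Ube2e2) and 2 fell (Ube2l6 and Usp16). That is 40.0% each way, against 29.7% and 25.0% of all tested genes. Among other relatives of the Ifitm genes, Ifitm5 and Ifitm6 stayed at or below 0.186 CPM, and neither tested gene passed, although DESeq2 called 1 of them and 1 had an unadjusted edgeR p under 0.05. That gene was Ifitm10, at 0.98 ± 0.41 on the log2 scale (SE; edgeR adjusted p = 0.0648). With A485 replicate 1 left out it passed, at 1.23 (edgeR adjusted p = 0.00845).

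Among 11 exonuclease genes related to Isg20, 3 rose and 3 fell. That is 27.3% each way, near the 29.7% and 25.0% of all tested genes. Without control replicate 3, 0 rose, and without control replicate 4, 1 rose. Isg20l2 and Aen, its closest relatives in the list, did not pass, at -0.06 ± 0.21 and 0.13 ± 0.17 on the log2 scale (SE; edgeR adjusted p = 0.832 and 0.538). Aen ends 2.19 kb upstream of Isg20 and measured 123 ± 16.9 CPM in A485 and 112 ± 21.1 CPM in control (SD, n = 4 per group). Rexo4 and Eri1 fell by 1.21 ± 0.17 and 1.09 ± 0.19 on that scale. Rexo5 and Eri3 rose by 0.94 ± 0.29 and 0.50 ± 0.16 on the log2 scale (SE). Leaving out control replicate 3 ended the call of Rexo5 (edgeR adjusted p = 0.0591). The call of Eri3 ended when control replicate 3, control replicate 4 or A485 library 4 was dropped (edgeR adjusted p from 0.0527 to 0.0817).

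Class I antigen presentation had the largest share of risen genes among the lists, with 12 of 20 tested genes higher and 1 lower (Psmb10). That is 60.0% and 5.0%, against 29.7% and 25.0% of all tested genes. When control replicate 1, 2 or 4, or the A485 replicate numbered 2 or 4, was left out, 0 were lower. B2m, encoding the shared light chain, rose in all A485 libraries, with 127, 247, 435 and 292 CPM in replicates 1 to 4, against 27.3, 27.3, 26.2 and 38.7 CPM in control replicates 1 to 4 (edgeR adjusted p = 6.27e-05). H2-T22, Psme2 and Erap1, which trims peptides, rose by 2.45 ± 0.29, 1.71 ± 0.23 and 4.57 ± 0.74 on the log2 scale (SE). Class I genes have near-identical copies, so single H2 counts are uncertain.

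In the NF-kappaB list 8 of 14 rose and 1 fell (Nfkbib), which is 57.1% and 7.14%, against 29.7% and 25.0% of all tested genes. Without control replicate 3 or 4, 5 rose, and without A485 replicate 3, 2 fell. Nfkbia, the inhibitor gene that NF-kappaB itself induces, rose to 77.6 ± 22.9 CPM in A485, against 15.7 ± 1.82 CPM in control (SD, n = 4 per group; edgeR adjusted p = 4.59e-05), and the kinase genes Chuk and Ikbkb rose by 1.38 ± 0.22 and 1.53 ± 0.36 in log2 terms (SE). Of 12 negative regulators of interferon signalling 2 rose and 4 fell (16.7% and 33.3%, against the same shares of all tested genes). Cish and Socs1 fell by 1.71 ± 0.20 and 0.89 ± 0.27 on the log2 scale (SE), Pias2 and Pias4 fell, Pias1 and Pias3 rose, and Socs3 did not pass (0.46 ± 0.40, SE; edgeR adjusted p = 0.361). Scaled by total count alone, Socs1 did not pass (edgeR adjusted p = 0.0785).

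**Figure D5:**
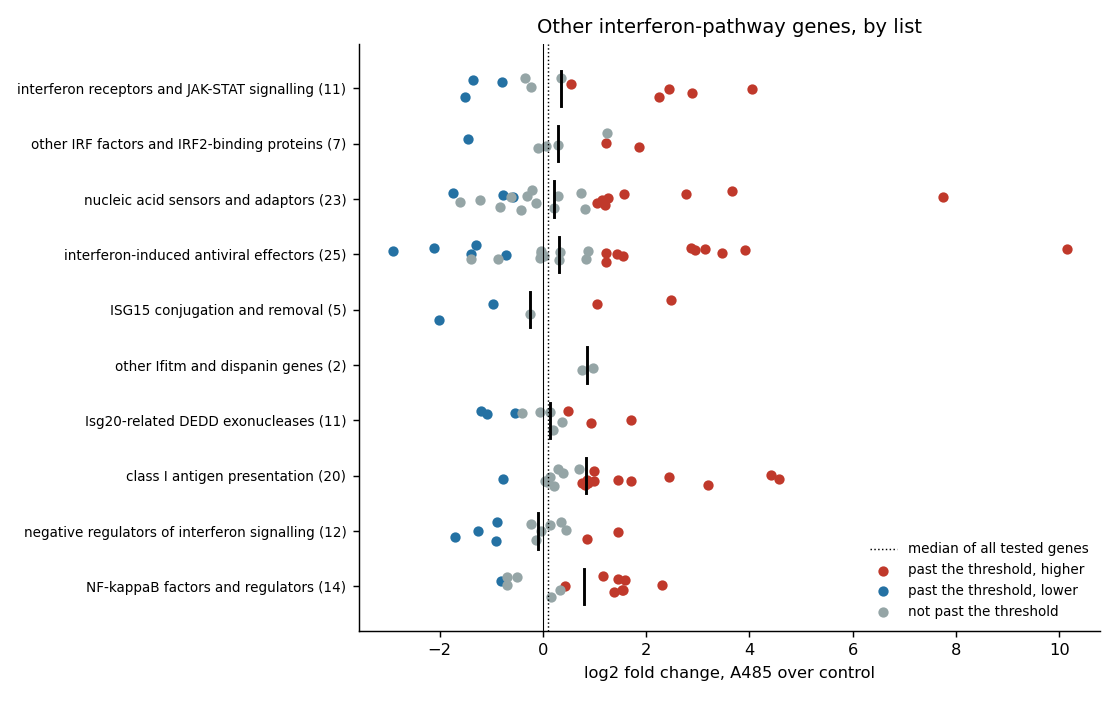
Log2 fold change (A485 over control) of each tested gene in 10 pathway lists, with the number of tested genes in brackets; short black bars are list medians and the dotted line is the median of all tested genes. The lists on class I antigen presentation and NF-kappaB have medians of 0.84 and 0.79, and the other list medians lie between -0.25 and 0.86. The point beyond 10 is Rsad2, whose fitted value rests on 0 control counts and is no bound.

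Genes with the most similar pattern were sought among 6826 genes of average log2 CPM of at least 3. The measure was the root mean square difference in centred log2 CPM over the 8 libraries. That log2 CPM holds a prior count of 2, which shrinks the change of genes with few control counts, such as Isg15, Isg20 and Irf1. Closest to Isg20 were Hmox1 (0.48), encoding haem oxygenase 1, Crabp1 (0.50), encoding a retinoic acid binding protein, and Mzb1 (0.59). Irf1 was closest to Tubb3 (0.61), and Isg20 followed it in the same order (0.61). Isg15 and Ifitm1 were both closest to Tspan13 (0.44 and 0.47), and Ifitm3 to Phyhipl (0.51). The nearness of Isg15 to Tspan13 depends on the prior count. Mean CPM was 1.34 in A485 and 0.0113 in control for Isg15, and 44.2 and 2.86 for Tspan13. The flatter patterns had nearer neighbours, with Apba3 for Ifitm2 (0.08), Cog7 for Bst2 (0.17) and Epb41l4b for Irf9 (0.23). The 8 libraries share the split into both culture groups, so this is a description of likeness.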

How the data were processed

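Polyadenylated RNA of 8 morula libraries was sequenced. Tools named in the submitters' processing notes are RSEM 1.2.28, HISAT2 2.2.1 and DESeq2 1.40.2, with build GRCm38.p6. The authors deposited estimated counts (18.2% of values not whole), FPKM, TPM and a normalized count given as a scaled signal, per the file headers. The authors' deposited log2 fold change, p-value and q-value were not used. Levels per length use the deposited TPM. After rounding, estimated counts went through filterByExpr, TMM scaling and the robust quasi-likelihood test of edgeR 4.0.16 (R 4.3.3) on group alone. The p-values of 12936 genes were adjusted by Benjamini-Hochberg, with a threshold of 0.05. SE is the size of the log2 fold change over the root of the F statistic. CPM uses TMM-scaled library sizes. Differences of library measures were tested over 70 assignments. The members and lists were chosen with earlier results of these data known. The text names, per list, up to 4 genes of smallest p past the threshold, a set of genes named whatever their values, and the exceptions it marks. Alternatives were DESeq2 1.42.0, limma-voom (limma 3.58.1), other factors and filters, non-robust dispersion, a replicate block and left-out libraries. In simulated data of 12899 genes for A485 versus control, 29.9% of 2-fold and 92.4% of 4-fold changes were recovered by edgeR, and 4.4% of its calls were false. That simulation changed a small part of the genes and gave both groups the same spread. Here 54.7% of tested genes were called and A485 libraries differed more among themselves, so these shares need not hold for this contrast. No replicates agreed within sampling noise. Coordinates and promoters are from RefSeq, overlaps from GENCODE M21, all on GRCm38. PCR copies cannot be told from molecules, so counting intervals cover counting error only. The sources used here do not state strandedness.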

Additional observations from a re-analysis of the deposited data

Results flagged for a closer look

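Isg15 in control replicate 2 stood apart from the other 3 control libraries, at 0.0451 CPM against 0 in each of them. The difference is 1 count. The 9 members gave 18 groups of 4 libraries to look at, and chance flags about 1 in 20 groups of continuous values. A lone count beside libraries at 0 is always flagged, so that rate does not apply to this flag.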

How the results depend on the processing

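The members were selected on this contrast, and 3 passed the filter through A485 libraries alone, so their calls across settings are a description and no sign of stability. Bst2 did not pass without A485 replicates 3 and 4 together (log2 fold change 0.61), so 5 members were then called higher. The 5 CPM filter, which tests 8194 genes and drops Isg15, left 2526 genes called higher among all tested genes and 28 among the pathway genes, against 3839 and 52. Leaving out 1 library gave 3509 to 4165 genes called higher and 2784 to 3520 lower, and 39 to 51 pathway genes higher and 20 to 26 lower. Replicate numbers are not said to pair the libraries. Deviations of same-numbered libraries correlated at 0.0051 to 0.104, and the highest correlation with another number was 0.0645 to 0.143. Such values cannot show whether pools were paired by litter or day. With a replicate block 3508 genes were higher and 3163 lower, 43 pathway genes were higher and 21 lower, 6 members were higher and 2 lower, and in the NF-kappaB list 4 were higher. Under total-count scaling the median change over all genes was 0.372 in log2 terms, against 0.085 with TMM and 0.177 with upper-quartile factors, and the scaling called 4930 higher and 2300 lower. Count ratios of genes with few control counts were also recomputed without each library, a step chosen after seeing the data. Under total-count scaling members had log2 fold changes from -2.0 (Irf9) to 7.36 (Isg20). The order of members by level changed with CPM in place of TPM, where in A485 embryos Bst2 took rank 1, Isg20 rank 3 and Ifitm1 rank 5. Depth limits Irf7, Isg15 and the silent pathway genes, which had few counts per library.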

Other observations

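The calls of all tested genes that hold a motif are given as a description. Of 349 genes with an ISRE core 104 rose and 98 fell (29.8% and 28.1%), against 29.7% and 25.1% of the 10413 tested genes with a promoter window. For the GAS motif, 250 of 829 genes rose and 195 fell (30.2% and 23.5%). An NF-kappaB motif (GGGA, any 2 bases, TTCC) was found in 184 tested genes, of which 49 rose and 59 fell (26.6% and 32.1%), and among the members in Isg20, at a start downstream of the printed one, and in Ifitm3. The cyclic AMP response element TGACGTCA was in none of the 9 members' windows.

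Within 250 kb of Isg20, 5 of 7 other genes in the table were tested. Mfge8, encoding a secreted phosphatidylserine-binding protein, rose to 202 ± 87.1 CPM in A485, against 78.1 ± 18.4 CPM in control (SD, n = 4 per group; edgeR adjusted p = 0.00396). Mrps11, a mitochondrial ribosomal protein gene, rose by 0.41 ± 0.14 on the log2 scale (SE; edgeR adjusted p = 0.0286), and Det1 fell by 0.94 ± 0.29 (SE; edgeR adjusted p = 0.019). These genes were chosen after their values were seen.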
